A study of Rattus norvegicus with 24 samples.

Results

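The samples described here are the right, contralateral tibialis anterior muscles of aged rats whose left hindlimb was silenced with tetrodotoxin (TTX), a blocker of voltage-gated sodium channels. They were chosen by the limb and treatment given in the sample labels and grouped by time point, and they number 9 of the 24 samples of the series. The study followed male Fischer 344 rats of 23 ± 1 months through a first atrophy, a recovery and a repeated atrophy, and read polyadenylated RNA from both limbs by RNA sequencing. An osmotic pump under the skin of the scapular region fed TTX to a cuff on the left common peroneal nerve, so the ankle dorsiflexors of that side fell silent while the right limb had neither cuff nor drug of its own. The 3 Atrophy animals were taken after 6 to 7 days of TTX. The 3 Recovery animals had the same TTX followed by 9 days without it. The 3 Repeated Atrophy animals had the same TTX, the same 9 days and a second TTX period of 5 to 6 days, for which they were anaesthetised again and the pump was exchanged. There were also 3 sham-operated animals, 1 per time point, whose right limbs are given beside the others as single values.

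Each time point is a different set of animals, so p-values measure the spread between animals, and the time point cannot be told apart from anything else that the animals of 1 set shared. The study pooled all right limbs of TTX animals as its control. The paper reports that no genes differed between sham samples and these pooled limbs, which also overlapped in its principal component analysis. Whether the right limbs of TTX animals were alike at the 3 time points is the question of the comparisons below, above all that of recovery with atrophy.

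Muscle that loses nerve activity turns on a set of genes for protein breakdown, among them the ubiquitin ligases Fbxo32 (atrogin-1) and Trim63 (MuRF1), many of them under FoxO transcription factors, and it brings back genes of fetal and denervated muscle. When loading returns, fibroblasts of the muscle make collagens and fibronectin for the matrix around the fibres. A contralateral limb keeps its nerve supply, but it shares the blood, hormones, feeding and anaesthesia of the animal and may carry a changed load.

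The promoters of a pair of genes that stand for the opposite directions found below are shown for orientation, with the motif that was searched in capitals. Each window runs from 250 bases before to 50 bases after the annotated start, 5′ to 3′, from RefSeq on the GRCr8 assembly. The Chac1 window is chr3:126795881-126796180 on the plus strand, and its capitals mark the only match to TGATGCAA, an element bound by ATF4 with C/EBP partners, read here on the opposite strand and starting 167 bases before the start. The Col1a2 window is chr4:33518307-33518606 on the plus strand, and its capitals mark a CCAAT box, also read on the opposite strand and starting 221 bases before the start.
Chac1: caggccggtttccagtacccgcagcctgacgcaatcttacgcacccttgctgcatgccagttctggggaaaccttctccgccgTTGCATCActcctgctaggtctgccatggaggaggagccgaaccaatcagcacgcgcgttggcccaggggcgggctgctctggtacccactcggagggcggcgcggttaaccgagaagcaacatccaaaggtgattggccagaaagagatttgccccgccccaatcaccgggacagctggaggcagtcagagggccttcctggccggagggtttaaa
Col1a2: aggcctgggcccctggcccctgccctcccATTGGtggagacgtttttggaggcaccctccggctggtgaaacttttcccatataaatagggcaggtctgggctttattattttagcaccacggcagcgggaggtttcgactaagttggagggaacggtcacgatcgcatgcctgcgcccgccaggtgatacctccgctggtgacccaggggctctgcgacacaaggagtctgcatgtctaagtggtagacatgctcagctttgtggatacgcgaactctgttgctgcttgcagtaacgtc
TGATGCAA on either strand was present in 266 of 33469 promoters (0.795%), and in 1 of the 33 promoters matched to genes that fell in recovery. CCAAT was present in 37.5% of all promoters, in 16 of those 33 and in 3 of the 3 promoters matched to genes that rose. The E-box CACGTG was found in 1 of the 33, against 6.42% of all promoters, the FoxO core GTAAACA in 2, against 3.78%, and the TEAD core CATTCC in 7, against 14.2%. A match of letters is a description of the window and not a site of binding.

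Values are counts scaled to a total of 1000000 per sample (CPM), and fold changes are differences of log2(CPM + 1), which understate the change of genes at low levels. A gene was called when its fold change was at least 1.2 and its adjusted p, by limma over all 13600 rows tested with Benjamini-Hochberg adjustment, was at most 0.05. A row is 1 annotated gene entry, and 513 of 13458 symbols have several. The depth inferred from the steps in the low values was 18900000 to 29100000 reads per right limb. Myofibre markers were present in every right limb, with all 8 genes detected, and their summed level was 64045 to 87406 CPM in atrophy, 100693 to 110768 CPM in recovery and 85897 to 105145 CPM in repeated atrophy. Markers of neutrophils and lymphocytes were near 0, with Mpo and Ms4a1 at 0 in all limbs. Summed fibroblast markers were 425 to 754 CPM in atrophy, 575 to 909 CPM in recovery and 599 to 1023 CPM in repeated atrophy. In bulk muscle, fewer cells of a type and less RNA per cell cannot be told apart.

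Between the right limbs of recovery and those of atrophy, 52 of 13600 rows were called (0.382%), of which 45 fell in recovery (0.331%) and 7 rose (0.0515%). An F test over the 3 groups called 0 rows, with a lowest limma adjusted p of 0.0959. The adjustment was made within each of the 3 comparisons and not across them. The falls were 0.76 to 3.04 on the log2 scale, and the rises 0.70 to 2.28. The 45 that fell included Ankrd1, Chac1, Ctsl, Gpx3, Glul, Ybx3 and Map1lc3a. The 7 that rose were Col1a1, Col1a2, Col3a1, Fn1, Clu, Uqcrc1 and Ephb1. All adjusted p lay between 0.0325 and 0.0475 by limma, so the list sits close to its threshold. At an unadjusted p under 0.05, 2131 rows were lower (15.7%) and 637 higher (4.68%). These shares are the background for the counts of list members at that p given below. The limbs of the compared groups did not overlap in 3908 rows (28.7%).

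The count of 52 rested on single limbs. Without the first atrophy limb 1371 rows were called, the same 52 among them. Without the second or the third atrophy limb, the first or the third recovery limb or the second repeated limb it was 0, without the second recovery limb 1, without the third repeated limb 6 and without the first repeated limb 36. With the repeated limbs left out of the fit, limma called 0 rows. The split also moved with the scaling: the median of all rows was -0.13 on the log2 scale, and after rescaling by trimmed means 13 of 46 calls were higher (28.3%), by median of ratios 14 of 47 (29.8%) and after quantile normalization 20 of 58 (34.5%), against 7 of 52 (13.5%) as deposited.

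**Figure D1:**
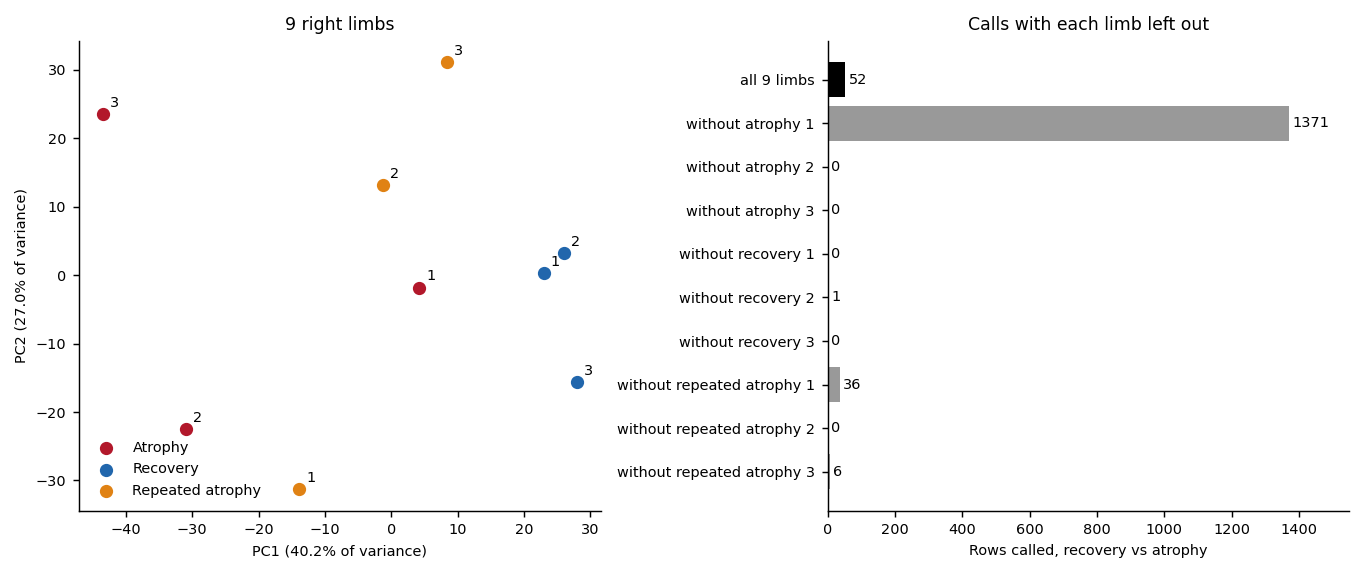
Left, the 9 right limbs on the first principal components of log2(CPM + 1) over 10331 rows, numbered by animal within group; the recovery limbs sit at 22.95 to 28.01 on the first axis and the first atrophy limb, at 4.26, lies nearest to them among the atrophy limbs. Right, bars from 0 give the number of rows called between recovery and atrophy with all 9 limbs and with each limb left out, from 0 to 1371.

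On the first principal component, which held 40.2% of the variance of 10331 rows, the atrophy limbs were at 4.26, -30.98 and -43.48, the recovery limbs at 22.95, 25.98 and 28.01, and the repeated limbs at -13.92, -1.25 and 8.42. The recovery limbs lay close together, and the atrophy limbs were spread widely, with the first of them beside the repeated limbs. Among the 52 called rows this first atrophy limb was the nearest of its group to recovery in 47, against 6115 of 10331 rows (59.2%) with a mean of at least 1 CPM.

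Ankrd1 (chromosome 1, 233815860 to 233824410, minus strand, rn7), which encodes a titin-associated repeat protein induced by strain and denervation, fell by 3.04 on the log2 scale (SE 0.50, limma adjusted p = 0.0453). Its right limbs were at 337, 463 and 1144 CPM in atrophy, 52.4, 140 and 42.0 CPM in recovery and 459, 531 and 360 CPM in repeated atrophy, a mean of 648 ± 434, 78.1 ± 53.8 and 450 ± 85.9 CPM (SD, n = 3 each). Every recovery limb lay below every other right limb of a TTX animal. The sham right limbs were at 57.0, 116 and 2272 CPM at the same 3 time points, so the sham animal of the atrophy time point was as low as the recovery limbs.

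Of 21 measured genes in a list of developmental and inactivity-induced genes, 1 was called lower (Ankrd1), and 11 had an unadjusted p under 0.05, all lower in recovery. The list's median was -0.82 on the log2 scale, against -0.13 over all rows. Members that missed the threshold were Gadd45a, a growth arrest gene, at -1.88 (limma adjusted p = 0.0768), Chrnd, an acetylcholine receptor subunit, at -1.63 (limma adjusted p = 0.112), and Myog, a myogenic transcription factor, at -1.48 (limma adjusted p = 0.126). In repeated against recovered limbs the list's median was 0.96 on the same scale, and 9 members were higher and 1 lower at an unadjusted p under 0.05. The 1 that was lower was Myl4, an embryonic myosin light chain, at -0.50 (limma adjusted p = 0.572).

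**Figure D2:**
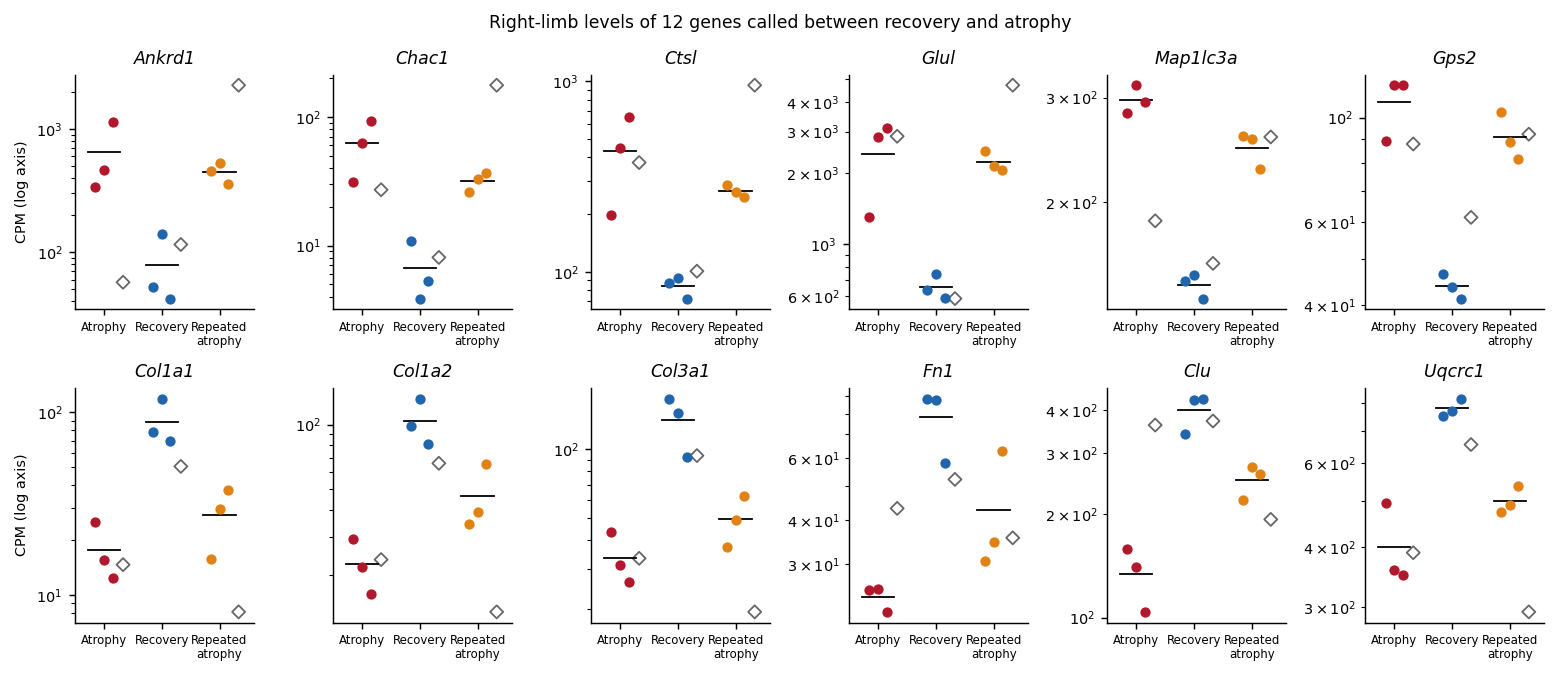
Levels in CPM (log axis) of 12 called genes in the right limbs at the 3 time points; filled points are the 3 animals of each group, lines their means, and open diamonds the single sham right limb. The recovery points of Ankrd1, Chac1, Ctsl, Glul, Map1lc3a and Gps2 lie below all atrophy points, those of the collagens, Fn1, Clu and Uqcrc1 above, and the sham diamond of the repeated time point reaches 2272 CPM for Ankrd1.

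Among genes of protein breakdown, Ctsl (chromosome 17, 764373 to 770534, plus strand), which encodes the lysosomal protease cathepsin L, was at 198, 446 and 649 CPM in atrophy, 87.7, 93.0 and 72.3 CPM in recovery and 284, 264 and 246 CPM in repeated atrophy. It fell by 2.19 on the log2 scale (SE 0.35, limma adjusted p = 0.0448). The recovery limbs were the lowest and tightly grouped, while the atrophy limbs spanned a wide range that held the repeated limbs. The sham right limbs were at 374, 101 and 954 CPM.

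Map1lc3a (chromosome 3, 143783024 to 143784671, plus strand) encodes LC3A, a protein of the autophagosome membrane. It was at 283, 315 and 295 CPM in atrophy, 148, 151 and 138 CPM in recovery and 258, 256 and 228 CPM in repeated atrophy, and fell by 1.03 on the log2 scale (SE 0.12, limma adjusted p = 0.0325). The groups of right limbs were separate, with the repeated limbs between the others and near the atrophy limbs. The sham right limbs were at 186, 158 and 258 CPM.

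Of 16 measured atrogenes and FoxO genes, 1 was called (Ctsl, lower), and all 16 had a lower mean log2 level in recovery. At an unadjusted p under 0.05, 14 were lower and none higher, and 14 had limbs that did not overlap, against 28.7% of all rows. The list's median was -1.34 on the log2 scale, and -0.85 without the third atrophy limb. Its best known members missed the threshold with a wide spread among the atrophy limbs. Fbxo32 was at 9.88, 26.5 and 92.4 CPM in atrophy and 6.17, 5.49 and 2.29 CPM in recovery, a difference of -2.50 (SE 0.65, limma adjusted p = 0.0931). Trim63 was at 212, 408 and 1925 CPM in atrophy, 163, 167 and 127 CPM in recovery and 287, 318 and 332 CPM in repeated atrophy, a difference of -1.86 (SE 0.61, limma adjusted p = 0.141). For both ligases the highest recovery limb was below the lowest atrophy limb. The summed level of the list was 2526, 4023 and 8357 CPM in atrophy, 1871, 1908 and 1523 CPM in recovery and 3037, 3186 and 3294 CPM in repeated atrophy, and in the sham right limbs 4228, 2169 and 9796 CPM.

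Of 29 measured genes of autophagy and the lysosome, 2 were called lower (Map1lc3a and Ctsl), and 13 were lower and none higher at an unadjusted p under 0.05, with a median of -0.43. After rescaling by trimmed means these were 7 and -0.22, and without the second atrophy or the second recovery limb 8 were lower at that p. Of 36 proteasome subunits none was called by limma, 36 had a lower mean log2 level in recovery and 19 of them an unadjusted p under 0.05, with a median of -0.57. After rescaling by trimmed means the 19 became 5 and the median -0.36. Without the first atrophy limb 29 were lower at that p, and limma called 16. Without the second 12 were lower, without the third 5 (median -0.31), and without 1 of the recovery limbs 7 or 8, with none called by limma. Psme4, the proteasome activator PA200, was at 190, 394 and 533 CPM in atrophy and 162, 146 and 155 CPM in recovery (difference -1.14, limma adjusted p = 0.121).

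Glul (chromosome 13, 66025641 to 66034886, plus strand), the glutamine synthetase that muscle induces in catabolic states and under glucocorticoids, was at 1306, 2834 and 3095 CPM in atrophy, 640, 746 and 590 CPM in recovery and 2487, 2153 and 2066 CPM in repeated atrophy. It fell by 1.78 on the log2 scale (SE 0.30, limma adjusted p = 0.0463). The repeated limbs lay within the range of the atrophy limbs, with a difference of -0.02 between those groups. The sham right limbs were at 2865, 586 and 4719 CPM.

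Chac1 (chromosome 3, 106342302 to 106345527, plus strand), an enzyme that degrades glutathione and is induced by ATF4, was at 31.0, 63.0 and 92.8 CPM in atrophy, 10.9, 3.87 and 5.27 CPM in recovery and 25.9, 33.1 and 37.0 CPM in repeated atrophy. It fell by 3.02 on the log2 scale (SE 0.41, limma adjusted p = 0.0360). All recovery limbs were below all others, and the repeated limbs overlapped the lowest atrophy limb. The sham right limbs were at 27.1, 8.08 and 176 CPM. Chac1 is the gene whose promoter, printed above, holds the TGATGCAA element, but it was the only called member among 27 measured genes of the ATF4 response. Of these 5 were lower and 3 higher at an unadjusted p under 0.05, against 15.7% and 4.68% of all rows. Without the first atrophy limb 10 were lower and 2 higher, without the third 3 and 1, and without the second atrophy limb or the first or the second recovery limb none was higher. The list's median of -0.09 was close to that of all rows and turned to 0.02 after rescaling by trimmed means.

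Gpx3, a secreted glutathione peroxidase, was at 449, 833 and 1015 CPM in atrophy, 186, 248 and 120 CPM in recovery and 253, 262 and 351 CPM in repeated atrophy, and fell by 2.03 on the log2 scale (SE 0.33, limma adjusted p = 0.0453). Here the repeated limbs were nearer to the recovery limbs than to the atrophy limbs. Gstm5, a glutathione transferase, fell by 1.28 (limma adjusted p = 0.0448), and Slc38a4, an amino acid transporter, fell by 1.32 (limma adjusted p = 0.0448).

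Of 13 glucocorticoid-responsive genes, 1 was called (Glul, lower), with 7 lower and 1 higher at an unadjusted p under 0.05 and a median of -0.80 on the log2 scale. After rescaling by trimmed means none was called by limma, 4 were lower at that p and the median was -0.58. Without the second atrophy limb 3 were lower, without the third 2 and without the first recovery limb 4. Fkbp5, a co-chaperone of the glucocorticoid receptor that is itself induced by it, was at 62.9, 146 and 78.9 CPM in atrophy, 42.2, 51.0 and 31.5 CPM in recovery and 162, 126 and 103 CPM in repeated atrophy. Its difference of -1.12 between recovery and atrophy did not pass (limma adjusted p = 0.102), nor did its difference of 1.63 between repeated atrophy and recovery (limma adjusted p = 0.291), although the recovery limbs lay below all others.

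Ybx3, a cold-shock domain protein that binds RNA, was at 2917, 4428 and 3955 CPM in atrophy, 1321, 1332 and 1299 CPM in recovery and 2837, 2523 and 2544 CPM in repeated atrophy, and fell by 1.49 on the log2 scale (SE 0.20, limma adjusted p = 0.0360). The 3 recovery limbs were nearly equal and below all others, and the repeated limbs were below the atrophy limbs. Etf1, which ends translation at stop codons, fell by 1.53 (limma adjusted p = 0.0379), and Dnajc2, a chaperone at the ribosome, by 1.41 (limma adjusted p = 0.0448). Gps2, a subunit of a nuclear corepressor complex, was at 89.3, 117 and 117 CPM in atrophy, 46.5, 43.7 and 41.3 CPM in recovery and 103, 88.6 and 81.9 CPM in repeated atrophy (a fall of 1.27, SE 0.15, limma adjusted p = 0.0325). Vezt, a protein of adherens junctions, fell by 1.16 with the same adjusted p of limma.

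None of 77 measured cytosolic ribosomal protein genes was called by limma, yet all 77 had a lower mean log2 level in recovery. Of these, 66 had an unadjusted p under 0.05, against 15.7% of all rows that were lower at that p, and 74 had limbs that did not overlap, against 28.7%. The list's median was -0.66 on the log2 scale. After rescaling by trimmed means it was -0.44, and 33 members in place of 66 had an unadjusted p under 0.05. Limma called 38 members without the first atrophy limb and 5 with rows summed per symbol, but none without any other atrophy or recovery limb. Summed, the list was at 17240, 21516 and 21730 CPM in atrophy, 12460, 13518 and 12789 CPM in recovery and 17765, 15526 and 14647 CPM in repeated atrophy. The lowest adjusted p was that of Rplp2, a stalk protein of the large subunit, at 43.0, 54.6 and 60.4 CPM in atrophy and 26.4, 27.4 and 30.2 CPM in recovery (difference -0.88, limma adjusted p = 0.0585). Of 20 chaperones of the endoplasmic reticulum none was called by limma and 9 were lower at an unadjusted p under 0.05, with a median of -0.48. After rescaling these were 3 and -0.26, and without the second or the third atrophy limb or the third recovery limb 4 were lower at that p.

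**Figure D3:**
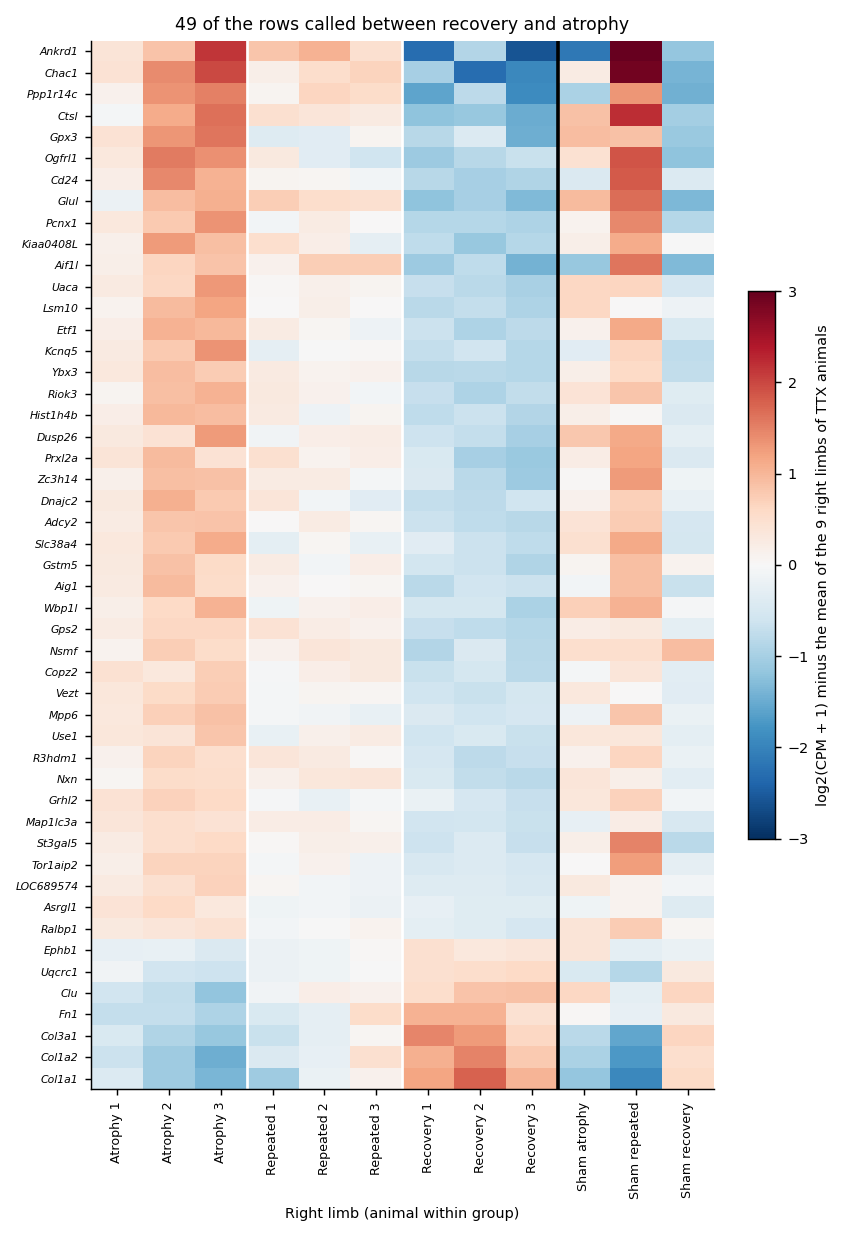
Of the 52 rows called between recovery and atrophy, 49 (rows) in 12 right limbs (columns), coloured by log2(CPM + 1) minus the mean of the 9 limbs of TTX animals, red above and blue below it; the 3 columns on the right are sham animals and entered no test. The repeated limbs are paler than the atrophy limbs in most rows, with a mean between those of the other groups in each, and the sham limb of the repeated time point is strongly coloured for Ankrd1, Chac1 and Ctsl.

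Other genes that fell by the rule for naming were Ppp1r14c, Ogfrl1, Cd24 and Pcnx1. Ppp1r14c, which encodes an inhibitor of protein phosphatase 1, was at 17.4, 41.8 and 46.7 CPM in atrophy and 4.57, 8.66 and 3.51 CPM in recovery (limma adjusted p = 0.0449). Cd24, which encodes a small surface glycoprotein, was at 321, 753 and 576 CPM in atrophy, 155, 139 and 148 CPM in recovery and 297, 290 and 264 CPM in repeated atrophy (a fall of 1.81, SE 0.26, limma adjusted p = 0.0379). Ogfrl1 was at 126, 302 and 265 CPM in atrophy and 47.5, 56.4 and 64.0 CPM in recovery (limma adjusted p = 0.0454), and Pcnx1 at 197, 273 and 400 CPM and 86.5, 86.8 and 82.1 CPM (limma adjusted p = 0.0360). In each of these 4 genes the recovery limbs lay below all atrophy limbs and below all repeated limbs.

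The genes that rose were led by fibrillar collagens. Col1a1 (chromosome 10, 79883622 to 79900626, plus strand), a chain of type I collagen, was at 25.2, 15.6 and 12.44 CPM in atrophy, 77.9, 119 and 69.5 CPM in recovery and 15.7, 29.5 and 37.4 CPM in repeated atrophy, with means of 17.7 ± 6.63 CPM in atrophy and 88.7 ± 26.4 CPM in recovery (SD, n = 3 each). It rose by 2.28 on the log2 scale (SE 0.35, limma adjusted p = 0.0442). Col1a2 (chromosome 4, 32563938 to 32598869, plus strand), the other chain, was at 29.4, 21.8 and 16.3 CPM in atrophy, 98.6, 132 and 80.9 CPM in recovery and 34.4, 39.2 and 65.8 CPM in repeated atrophy (rise 2.17, SE 0.29, limma adjusted p = 0.0360). For both chains every recovery limb was above every other right limb of a TTX animal. Their sham right limbs were at 14.7, 50.5 and 8.09 CPM and at 23.6, 66.1 and 13.5 CPM, with the recovery animal the highest.

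Col3a1 (chromosome 9, 47374611 to 47410548, plus strand), which encodes type III collagen, was at 43.3, 31.2 and 26.3 CPM in atrophy, 167, 145 and 92.6 CPM in recovery and 37.3, 49.0 and 62.3 CPM in repeated atrophy (rise 1.96, SE 0.27, limma adjusted p = 0.0360). Fn1 (chromosome 9, 73196044 to 73264678, minus strand), which encodes fibronectin, was at 25.4, 25.4 and 21.99 CPM in atrophy, 88.4, 87.9 and 58.1 CPM in recovery and 30.7, 34.7 and 62.8 CPM in repeated atrophy (rise 1.62, SE 0.27, limma adjusted p = 0.0453). For Fn1 the third repeated limb lay within the range of the recovery limbs, and for Col3a1 the groups of recovery and repeated limbs were separate.

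Of 37 measured collagen and matrix genes, 4 were called, all higher in recovery, and 19 were higher and 2 lower at an unadjusted p under 0.05. The median was 0.59 on the log2 scale, against -0.13 over all rows. Without the first recovery limb 10 were higher at that p, with a median of 0.45. Ccn1, a matricellular protein induced by mechanical strain, went the other way, at -1.59 (limma adjusted p = 0.0921). Of the fibroblast markers, 7 of 7 had a higher mean log2 level in recovery than in atrophy (median 0.32), and only Col1a1 was called. Their summed levels overlapped, at 425 to 754 CPM in atrophy and 575 to 909 CPM in recovery. In repeated atrophy the sum was 599 to 1023 CPM, not lower than in recovery, unlike the collagens above. Summed tendon markers, none of them called by limma, were 28.2 to 37.4 CPM in atrophy, 58.1 to 148 CPM in recovery and 32.6 to 81.7 CPM in repeated atrophy. Of 12 macrophage and leukocyte markers 10 had a higher mean log2 level in recovery (median 0.35), with sums of 123 to 173 CPM in atrophy and 142 to 210 CPM in recovery. Erythrocyte markers had a median of -0.66, with sums of 854 to 2107 CPM in atrophy and 486 to 1162 CPM in recovery. Col1a1, Dcn and Lum are on both the fibroblast and the matrix list, and Fmod and Thbs4 on both the tendon and the matrix list. The part of the content of any of these cells in the collagen levels was not tested. The median of the collagen and matrix list in the sham right limbs was -0.15, against -0.29 over all rows, and the collagens above were higher in the sham recovery animal.

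Clu (chromosome 15, 40161068 to 40200306, plus strand), which encodes the extracellular chaperone clusterin, was at 158, 140 and 104 CPM in atrophy, 341, 428 and 432 CPM in recovery and 219, 273 and 260 CPM in repeated atrophy. It rose by 1.59 on the log2 scale (SE 0.18, limma adjusted p = 0.0325). The 3 groups were separate, in the order atrophy, repeated atrophy, recovery, while the sham right limbs, at 362, 372 and 193 CPM, did not follow it. Ephb1, an ephrin receptor, was near the lower limit, at 0.334, 0.371 and 0.172 CPM in atrophy and 1.23, 0.995 and 1.06 CPM in recovery (rise 0.70, SE 0.12, limma adjusted p = 0.0475).

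Uqcrc1 (chromosome 8, 109589735 to 109601482, plus strand), a core protein of respiratory complex III, was the single called gene of energy metabolism. It was at 495, 360 and 350 CPM in atrophy, 752, 769 and 817 CPM in recovery and 474, 490 and 536 CPM in repeated atrophy, a rise of 0.97 on the log2 scale (SE 0.16, limma adjusted p = 0.0455). The recovery limbs were above all others, and the sham right limbs were at 390, 655 and 294 CPM. Of 76 respiratory chain genes, 71 had a higher mean log2 level in recovery and 35 of them an unadjusted p under 0.05. The 1 that was lower at that p was Atp5if1, the inhibitor of the mitochondrial ATP synthase, at 76.4, 118 and 98.8 CPM in atrophy and 46.4, 53.1 and 48.6 CPM in recovery (difference -0.95, limma adjusted p = 0.0576). The list's median was 0.47, and 0.69 after rescaling by trimmed means, and it was 0.28 without the third atrophy limb. In repeated atrophy against recovery 25 of the 76 were lower and none higher at an unadjusted p under 0.05.

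Of 26 genes of glycolysis and glycogen none was called by limma and 8 were higher at an unadjusted p under 0.05, with a median of 0.32. With values rescaled by trimmed means 11 were higher, with a median of 0.53. Without the third atrophy limb or 1 of the recovery limbs 4 or 5 were higher at that p. Their summed level was 83096, 68025 and 55102 CPM in atrophy, 92732, 93756 and 93107 CPM in recovery and 79223, 82673 and 81944 CPM in repeated atrophy. Of 15 genes of fast fibres none was called by limma and 5 were higher at that p, with a median of 0.48 (0.27 and 2 genes after quantile normalization, 0.28 without the third atrophy limb), and their summed level overlapped, at 249841, 211319 and 198642 CPM in atrophy and 241964, 245746 and 258186 CPM in recovery. The sum of the myofibre markers given above was higher in every recovery limb than in every atrophy limb. By gene, 4 of the 8 myofibre markers had a higher mean log2 level in recovery and 4 a lower one, with a median of 0.18. Of 13 genes of slow fibres none was called by limma, and 3 were lower and 1 higher at an unadjusted p under 0.05, against 15.7% and 4.68% of all rows. Their median of -0.20 was 0.02 after rescaling by trimmed means, -0.52 without the first recovery limb and 0.03 without the second. The part of these abundant transcripts in the lower CPM of other genes was not tested.

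**Figure D4:**
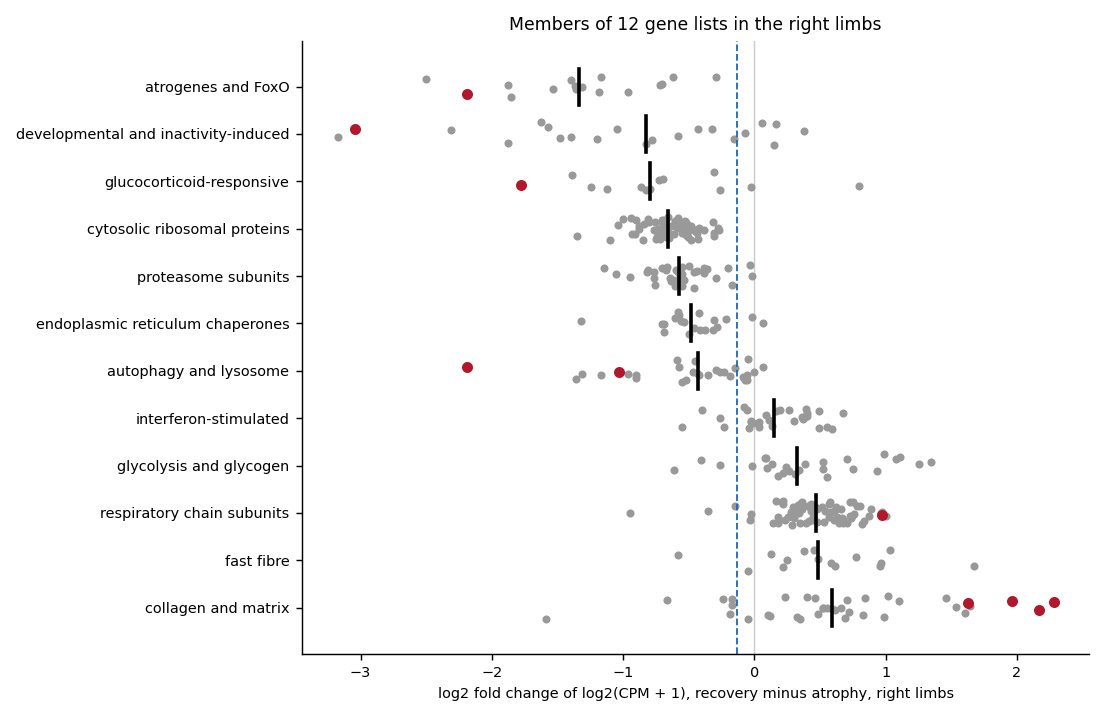
Each point is 1 gene of the named list, placed by its log2 fold change between recovery and atrophy in the right limbs; red points passed the threshold, black bars are list medians and the dashed line is the median of all rows, -0.13. Medians run from -1.34 for atrogenes to 0.59 for collagen and matrix, with few red points in any list.

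Further lists had no called member by limma with all 9 limbs. Without the first atrophy limb it called 4 p53 targets and Gadd45 genes, 3 metallothioneins and zinc transporters, 2 heat shock proteins and 1 polyamine gene. It also called 7 genes of fatty acid use and fasting, 3 of inflammation and 3 of proliferation. Without any other atrophy or recovery limb it called none of these. Over all rows 15.7% were lower and 4.68% higher at an unadjusted p under 0.05. Of 18 p53 targets and Gadd45 genes 15 had a lower mean log2 level in recovery, and 7 were lower and none higher at an unadjusted p under 0.05, with a median of -0.42. It was -0.25 after rescaling by trimmed means, and -0.67 without the second recovery limb, while without the third atrophy limb 4 were lower at that p. Of 12 metallothioneins and zinc transporters 3 were lower and none higher at that p, with a median of -0.28 (-0.12 after rescaling), among them Mt2A at -2.44 (limma adjusted p = 0.0811), and 5 were lower without the first atrophy limb and 2 without either of the others or the third recovery limb. Of 11 polyamine genes and of 24 heat shock proteins 4 each were lower and none higher, with medians of -0.21 and -0.20 that turned to 0.01 and 0.02 after rescaling. For the heat shock proteins this count was near the 15.7% of all rows. Of the heat shock proteins 9 were lower at that p without the first atrophy limb, 2 without the first or the second recovery limb and 1 without the third atrophy or the third recovery limb. Of the polyamine genes 2 were lower without the third atrophy or the third recovery limb.

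None of 30 interferon-stimulated genes had an unadjusted p under 0.05 (median 0.15), and after rescaling by trimmed means 3 were higher (median 0.31). Of 25 genes of inflammation 3 were lower and 1 higher at that p (median -0.04), and of 24 genes of fatty acid use and fasting 8 were lower and 1 higher (median -0.13, turning to 0.08 after rescaling by trimmed means). Over all rows 15.7% were lower and 4.68% higher at that p. Without the third atrophy or the third recovery limb 5 of the fasting genes were lower at that p. For the genes of inflammation the balance turned with the choice of limbs: without the first atrophy limb 7 were lower and none higher, without the second 1 lower and 2 higher, without the third recovery limb 1 lower and 4 higher, and without the first or the second recovery limb 1 each way. Rescaling by trimmed means left 2 lower and 2 higher (median 0.08). Among the fasting genes Pdk4, which holds back pyruvate oxidation in fasting, was at 23.2, 196 and 555 CPM in atrophy and 26.2, 11.8 and 28.3 CPM in recovery (difference -2.68, limma adjusted p = 0.154), with the first atrophy limb among the recovery limbs. Of 27 proliferation genes 8 were higher and 2 lower at an unadjusted p under 0.05 (median 0.12), among them Ccnd1, which encodes cyclin D1, at 1.34 (limma adjusted p = 0.0768). Without the second atrophy or the second recovery limb 5 were higher. Their summed level ran the other way, at 158, 175 and 147 CPM in atrophy and 130, 120 and 103 CPM in recovery.

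Clock genes vary with the hour of the day. By the study's methods all rat tissue was taken from morning to early afternoon, and the authors report no tendency of any group to be taken at an earlier hour. The hour of each animal is not in the labels. Of 16 measured clock and clock-output genes none was called by limma, with 2 higher and 4 lower at an unadjusted p under 0.05, against 4.68% and 15.7% of all rows. Dbp, a clock output gene with 3 rows, had its most abundant row at 27.5, 4.49 and 21.1 CPM in atrophy, 102, 93.2 and 52.1 CPM in recovery and 19.6, 47.2 and 146 CPM in repeated atrophy (difference 2.41 between recovery and atrophy, limma adjusted p = 0.123). Another Dbp row lay just outside the threshold, at 1.76 (limma adjusted p = 0.0501). Arntl, which encodes the activator BMAL1, was at 10.47, 16.6 and 23.1 CPM in atrophy, 4.35, 2.14 and 3.76 CPM in recovery and 16.1, 8.87 and 4.80 CPM in repeated atrophy (difference -1.98, limma adjusted p = 0.0655). Both genes were separate between recovery and atrophy limbs, in opposite directions.

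Between repeated atrophy and atrophy limma called 0 of 13600 rows (0%), with 797 rows at an unadjusted p under 0.05 (5.86%) and limbs that did not overlap in 1140 (8.38%). The lowest adjusted p was 0.792. Among rows with a mean of at least 10 CPM in a group, those of lowest p that were higher in repeated atrophy, all past no threshold, were LOC108348108, at 8.84, 3.51 and 7.14 CPM in atrophy and 24.6, 16.99 and 24.6 CPM in repeated atrophy, then Clu, Mid1ip1, Col1a2 and Mical2. Clu differed by 0.92 and Col1a2 by 0.996 on the log2 scale. Those that were lower were Mpp6, Bcap31, Asrgl1, Rplp2 and Atp6v1f, with differences of -0.76, -0.997, -0.57, -0.71 and -0.63. Of the 77 ribosomal protein genes 20 were lower and none higher at an unadjusted p under 0.05.

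Between repeated atrophy and recovery limma also called 0 rows (0%), with 1110 at an unadjusted p under 0.05 (8.16%), limbs that did not overlap in 2541 (18.7%) and a lowest adjusted p of 0.288. Among the rows of lowest p with a mean of at least 10 CPM in a group, those higher in repeated atrophy included Gps2 (1.03), Aif1l (1.62), Map1lc3a (0.76) and Mbp, a myelin protein gene (1.56). Those that were lower were Immt (-0.79), an organiser of mitochondrial cristae, Pdhx (-0.75), a component of pyruvate dehydrogenase, Col3a1 (-1.41), a row of Dbp (-1.60) and Hacd1 (-0.89), all on the log2 scale. The most abundant row of Dbp, whose levels are given above, differed by -0.61 (limma adjusted p = 0.870). Immt was at 263, 256 and 292 CPM in recovery and 177, 145 and 145 CPM in repeated atrophy, with no overlap. An F test over the 3 groups called 0 of 13600 rows (0%) by limma, with 1892 at an unadjusted p under 0.05.

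In the 52 rows called between recovery and atrophy, the mean of the repeated limbs lay between the other means in 52, against 7296 of 13600 rows (53.6%). The rows were chosen for distant atrophy and recovery means, so a mean between them is the more likely place. The repeated limbs were separate from the recovery limbs in 50 of the 52, with Grhl2 and Fn1 as the exceptions, and from the atrophy limbs in 29. At an unadjusted p under 0.05, 48 differed between repeated atrophy and recovery and 29 between repeated atrophy and atrophy, in comparisons that share limbs with the one that chose the rows.

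The left limbs of the same animals share no sample with the right limbs. There, limma called 1994 of 13677 rows between recovery and atrophy (14.6%), with 364 higher. After rescaling by trimmed means 687 of 1250 calls were higher, and without the first recovery limb 264 rows were called, without the second 335, without the third atrophy limb 491, without the first 1210 and without the second 3174. All 52 rows called in the right limbs had the same sign in the left limbs, against 10135 of 13409 rows (75.6%), and 43 of the 52 were called there (82.7%), which is 2.16% of the 1994. The 9 that were not included Ppp1r14c, Aig1, Nsmf, Copz2, Grhl2, St3gal5, Ephb1 and Clu. Ankrd1 differed by -3.20 in the left limbs and -3.04 in the right, Ctsl by -2.62 and -2.19, Glul by -2.35 and -1.78, and Col1a1 by 3.00 and 2.28 on the log2 scale. Clu was 0.71 in the left limbs (limma adjusted p = 0.158). A test of the difference between limbs within animals called 2 of 14031 rows (0.0143%), Tuba8 and Mical2, neither of them among the 52. Without the first or the third atrophy animal, any recovery animal or the second or the third repeated animal the count was 0, without the second atrophy animal 19 and without the first repeated animal 3.

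The sham right limbs had the same sign between the recovery and atrophy time points in 46 of the 52 rows (88.5%), against 8658 of 13600 rows (63.7%), with 1 animal per time point and no test. The exceptions included Ankrd1, Cd24, Gstm5, Nsmf and Ephb1. The sham right limb of the repeated time point was above all right limbs of TTX animals for Ankrd1 (2272 CPM), Chac1 (176 CPM), Glul (4719 CPM) and Trim63 (2957 CPM). That of the atrophy time point had summed endothelial markers of 731 CPM, against 264 to 343 CPM in the limbs of TTX animals, and neutrophil markers of 31.1 CPM, against at most 4.78 CPM. The part of these values in the sham differences was not tested.

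The counts in the left limbs differed with the right limbs taken as control. Against all 9 right limbs, limma called 3171 of 14031 rows in the left limbs of atrophy (22.6%), 1084 in recovery (7.73%) and 4812 in repeated atrophy (34.3%). Against the 3 right limbs of the same animals it called 0 in atrophy (0%), with 2486 at an unadjusted p under 0.05, 49 in recovery (0.349%) and 3812 in repeated atrophy (27.2%). Both fits took the limbs of an animal as independent samples, so these are not within-animal tests. The comparisons differ in the number of control limbs as well as in their time point, so the counts do not measure the shift of the control alone.

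The 52 rows were chosen because the right limbs of recovery and atrophy differ, so a move of their values when the pool is replaced by the recovery animals' own limbs is set by that choice and is given as a description. In the left limbs of recovery, 7 of them were called lower than the pooled right limbs (Chac1, Glul, Dusp26, Gps2, Vezt, Nxn and Map1lc3a) and 4 higher (Fn1, Col3a1, Col1a2 and Col1a1). Against the animals' own right limbs, in the same unpaired fit, none of these 11 was called by limma. Another 1 of the rows was, Ppp1r14c, higher by 2.75 (limma adjusted p = 0.0430). Chac1 was -3.22 against the pool (limma adjusted p = 0.0161) and -1.49 against its own right limbs (limma adjusted p = 0.235). Col1a1 was 3.07 (limma adjusted p = 0.00731) and 1.75 (limma adjusted p = 0.150), and Glul -1.73 (limma adjusted p = 0.0333) and -0.55 (limma adjusted p = 0.426). Ctsl was -0.51 and 0.77, and neither value passed.

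**Figure D5:**
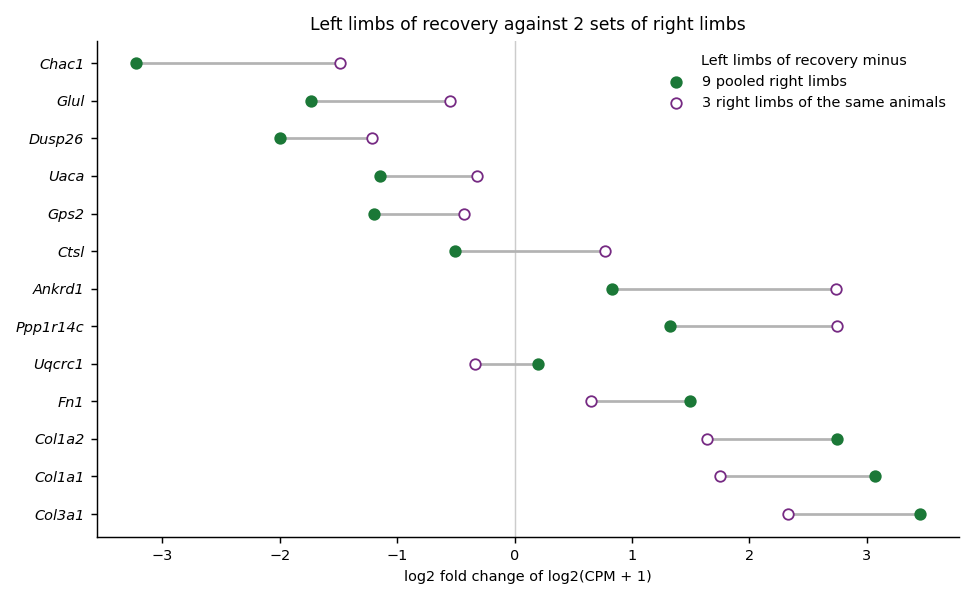
Log2 fold changes of 13 called genes in the left limbs of recovery, against all 9 right limbs (filled) and against the 3 right limbs of the same animals (open). The genes were chosen for a difference between right limbs, which sets the direction of these moves. For Chac1 the value moves from -3.22 to -1.49, for Col1a1 from 3.07 to 1.75, and for Ctsl and Uqcrc1 it changes side of 0.

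The rows just inside the threshold between recovery and atrophy were Zc3h14 and Kiaa0408L, both with a limma adjusted p of 0.0473, and Ephb1, and those just outside were Dbp, Samd8 and Bcap31, with 0.0501, then Nelfe and Ciart, with 0.0542. Samd8 differed by -1.31 and Bcap31 by -1.24 on the log2 scale, and Ciart, a repressor of the clock, by 1.39. Of the 52 called rows, 7 had symbols with several rows, among them Zc3h14, Wbp1l, Nsmf, Tor1aip2 and LOC689574, whose reads the counting may have divided.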

How the data were processed

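The deposited table holds CPM (counts scaled to a total of 1000000) for 24 samples, which the authors made from poly(A) libraries aligned to rn7. The submitters' processing notes name Bowtie2 2.2.5, STAR, Partek and DESeq2. Which annotation was used and how reads were counted is not given in the sources used here. The study's methods describe a median-of-ratios normalization, but every column summed to 1000000. Of values from 0.01 to 2 CPM, about 88% were within 0.02 of a whole number of reads at the best-fitting depth of the sample. The others were not, so the values were not treated as whole reads and no count test was run. Of 14271 rows 28 were duplicates, which left 14243 rows with 13458 symbols, of which 513 had several rows. Another 3 columns of values were not used.

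Rows above 0 in at least 3 of the fitted samples were kept, a pseudocount of 1 was added and log2 values were fitted with limma 3.58.1 in R 4.3.3 with an intensity trend, the 9 right limbs in 1 model of 3 groups. Calls needed a fold change of 1.2 and an adjusted p of 0.05. Differences between limbs were fitted on left minus right values per animal. Data were simulated for recovery against atrophy on 10331 genes, with a dispersion of 0.05 for every gene and group. There 98.5% of 4-fold, 44.8% of 2-fold and 3% of 1.5-fold changes were called, with 5 false calls among 102. Genes with a wider spread, such as Fbxo32 and Trim63 among the atrophy limbs, are not covered by these shares. Named genes were the 10 largest falls and rises past the threshold with separate limbs and at least 10 CPM in a group, the 5 lowest p per direction at that level where fewer than 5 passed, and up to 6 members of each list by size. Other genes, singled out for a clear role or a small count, were chosen after their values were seen. The samples, the 28 gene lists and the 13 marker lists were chosen with earlier results of these data known. The number of animals limits the precision. Results of 3 called genes are not reported here.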

Additional observations from a re-analysis of the deposited data

Results flagged for a closer look

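In 2 genes the difference between recovery and atrophy was not the same in the left and right limbs of the same animals, by limma on left minus right values. Tuba8, an alpha tubulin, had a difference between limbs of -2.76 on the log2 scale (SE 0.31, limma adjusted p = 0.0248). In the right limbs it was at 226, 165 and 187 CPM in atrophy and 308, 329 and 421 CPM in recovery (0.87, limma adjusted p = 0.105), and in the left limbs at 561, 200 and 440 CPM and 88.2, 94.4 and 113 CPM (-1.90, limma adjusted p = 0.00807). Mical2, an enzyme that oxidises actin, had a difference between limbs of -2.73 (SE 0.31, limma adjusted p = 0.0248). Its right limbs were at 38.1, 51.6 and 62.1 CPM in atrophy and 67.3, 52.8 and 49.5 CPM in recovery (0.17, limma adjusted p = 0.657), and its left limbs at 62.0, 68.7 and 193 CPM and 16.8, 11.7 and 17.6 CPM (-2.55, limma adjusted p = 0.00584).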

How the results depend on the processing

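The 52 calls between recovery and atrophy became 8 with a pseudocount of 10 (7 of them among the 52), 239 and 273 with a mean of at least 1 or 10 CPM (50 and 47 among the 52), 171 with rows summed per symbol (49), 19 without the trend (17), 184 with all 18 limbs in 1 fit and 186 with the animal as a random effect (41 each), 20 with the sham right limbs added (13), and 0 with no filter or with only the groups compared. Leaving out 1 limb gave 0 to 1371. A pseudocount of 0.1 gave 69, rescaling by trimmed means 46, by median of ratios 47, quantile normalization 58 and robust hyperparameters 63. Between repeated atrophy and recovery, 4 rows were called with only the groups compared, and 0 to 2 with 1 limb left out. The F test gave 21 and 23 with a mean of at least 1 or 10 CPM, 29 with 18 limbs and 29 with the animal as a random effect, 2 with the sham limbs, and 0 to 330 with 1 limb left out. In the left limbs, rescaling by trimmed means gave 1250 calls and quantile normalization 1277, with 687 and 707 of them higher against 364 of 1994, and leaving out 1 limb gave 264 to 3174. The difference between limbs gave 4 calls with a pseudocount of 10, and 0 to 19 with 1 animal left out. The cause of these moves was not tested. Of values of called rows under the alternatives, 681 stayed past the threshold and 664 did not, and of values of other named genes 3835 stayed outside it and 210 passed. None of these changed sign past the threshold. The comparisons between time points could not be paired, because the 3 groups of right limbs come from different animals. The counts of left against own right limbs came from a fit without pairing.

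With 3 animals a group, changes under 2-fold were rarely called in data simulated at a single dispersion. Genes with a wide spread among the atrophy limbs, such as Fbxo32 and Trim63, missed the threshold at larger differences. A missed threshold therefore does not show that a gene was level. Each time point is its own set of animals, so the set and the time point cannot be told apart. Among the TTX animals, the second operation was given to the repeated atrophy group alone. By the study's methods the sham animals had the same surgery without TTX.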
